A study of Mus musculus with 24 samples.

Results

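The cytoplasm of mouse epiblast-like cells (EpiLC) was compared with total RNA of the same cells, gene by gene. The libraries were taken by their labels, with no measured value in the rule: 3 EpiLC cytoplasm libraries against 3 EpiLC total RNA libraries, 6 of the 24 libraries of the series. The series holds 8 groups of 3 libraries, which are chromatin, nucleoplasm, cytoplasm and total RNA of EpiLC and of naive embryonic stem cells (nESC). All cells belong to the E14 mouse embryonic stem cell line and were grown in N2B27, a serum-free medium. EpiLC were made by plating naive cells with activin A at 20 ng/ml and the growth factor bFGF at 12 ng/ml and were collected on day 3, whereas nESC were kept in LIF with the MEK inhibitor PD0325901 and the GSK inhibitor CHIR99021. Cytoplasm was obtained by lysing cells and layering the lysate over sucrose so that the nuclei were removed. Total RNA came from unfractionated EpiLC. Every library was depleted of ribosomal RNA and kept the strand of the RNA. The labels do not say that replicates came from separate cultures, so the p-values measure a spread between libraries that may be technical. In the EpiLC comparison that spread was estimated over all 12 EpiLC libraries, chromatin and nucleoplasm included.

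A messenger RNA is made on chromatin, spliced, exported through the nuclear pore and then translated and degraded in the cytoplasm. The share of a gene's RNA in the cytoplasm therefore depends on how long the RNA stays in the nucleus and how long it lasts afterwards. Several RNAs are known to be kept in the nucleus, among them Malat1 and transcripts that retain introns, and messages of the mitochondrial genome lie inside mitochondria. EpiLC are a cell culture model of the formative epiblast, the stage between naive and primed pluripotency.

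Levels are FPKM, fragments normalised to transcript length and to library size, from the authors' table. A difference is cytoplasm minus total on the scale of log2(FPKM + 0.5), which understates the change of low genes. It compares relative levels in 2 RNA pools, not amounts per cell, because each library is normalised to a size. How that size was set is not given in the sources used here. A gene was called where limma gave a Benjamini-Hochberg adjusted p under 0.05 and the difference was at least 2-fold. The step between low FPKM values gave the depth: 1 FPKM at a length of 2 kb stood for 37.0 to 44.8 fragments in cytoplasm libraries and for 63.5 to 84.8 in total libraries. At least 1 FPKM was reached by 11715 to 11809 genes in cytoplasm libraries and by 12388 to 12458 genes in total libraries. Replicates correlated at r = 0.988 to 0.994 across genes. Cytoplasm replicate 3 lay nearer to total RNA than the others did. The SD of its log2 difference to the mean of total RNA across genes was 0.91, against 1.11 in replicate 1 and 1.12 in replicate 2.

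The label was checked against marker genes. All 9 formative markers found in the table averaged at least 1 FPKM in both pools, and they summed to 1750 to 1880 FPKM in cytoplasm and 1210 to 1250 FPKM in total RNA. The 9 naive markers summed to 88.8 to 108 FPKM in cytoplasm and 38.4 to 41.3 FPKM in total RNA, with 6 of 9 averaging at least 1 FPKM in cytoplasm and 7 of 9 in total RNA. Markers of primitive endoderm summed to 2.2 to 2.44 FPKM in cytoplasm and 3.71 to 4.65 FPKM in total RNA, with Sox7 under 0.1 FPKM throughout. Trophectoderm markers summed to 26.8 to 34.6 FPKM in cytoplasm and 15.5 to 15.9 FPKM in total RNA, mostly from the keratin gene Krt8, with Cdx2 under 0.1 FPKM throughout. Mesoderm and neural markers summed to 7.77 to 11.1 FPKM in cytoplasm and 19.4 to 21.1 FPKM in total RNA, mostly from the filament gene Nes. Feeder and fibroblast markers summed to 8.5 to 14.3 FPKM in cytoplasm and 12.8 to 15.1 FPKM in total RNA. In bulk RNA, fewer cells of a type and less RNA per cell cannot be told apart.

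Of 12834 genes tested, 3890 differed between EpiLC cytoplasm and total RNA, which is 30.3%. Cytoplasm was higher for 1630 genes (12.7%) and lower for 2260 genes (17.6%). The 3 cytoplasm and 3 total values did not overlap for 10546 genes (82.2%), so non-overlap alone says little about a gene here. Genes called higher included 63 of 66 replication-dependent histones, 65 of 82 ribosomal protein genes and 9 of 16 glycolysis genes. Genes called lower included 11 of 13 messages of the mitochondrial genome, 169 of 344 genes with Zfp names, 31 of 67 chromatin regulators and 22 of 45 mitosis and kinetochore genes, so in the last 3 groups most members did not pass. Without cytoplasm replicate 3 and the chromatin library of the same number, 1954 genes were higher and 2464 lower.

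The zero of the scale depends on how the libraries are scaled. The median difference over all genes tested was 0.16 on the log2 scale as deposited. FPKM summed to 1555120 to 1721290 in cytoplasm libraries and to 811018 to 839357 in total libraries. Scaling every library to one sum put the median of all genes at -0.71, with 46 genes higher and 4875 lower. Centring each library on its median gene gave 2174 higher and 2019 lower. Group medians below are to be read against the median of all genes on the same scale, which was 0.16 as deposited, -0.71 with one sum and 0.03 after correction for length and GC content.

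**Figure D1:**
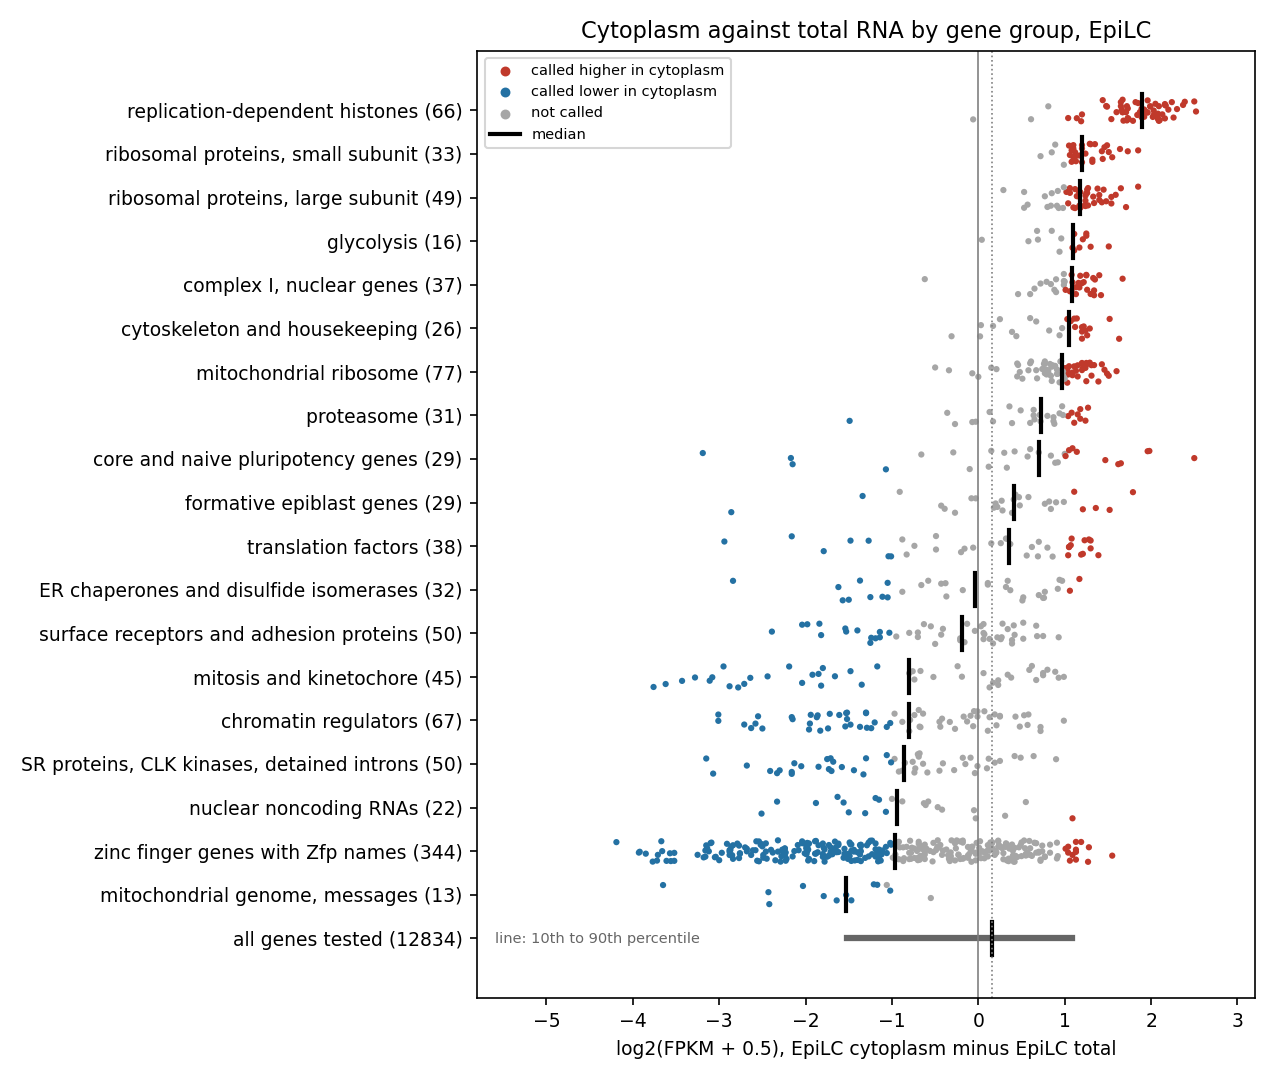
Difference between EpiLC cytoplasm and EpiLC total RNA on the log2(FPKM + 0.5) scale (x axis) for each tested gene (points) of 19 gene groups (rows, number tested in brackets), with the group median (black bar) and, in the last row, the median and the 10th to 90th percentile of all genes tested. Histones lie highest with a median of 1.9, mitochondrial messages lowest with -1.53, and all genes have a median of 0.16, which becomes -0.71 when libraries are scaled to one sum.

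The replication-dependent histones, whose proteins package newly copied DNA and whose messages are made in S phase, stood highest. Of 66 tested, 63 were higher in cytoplasm and none was lower, with a median of 1.9 against 0.16 for all genes. Such messages are known to end in a stem-loop in place of a poly(A) tail, and libraries made by ribosomal RNA depletion keep them. The stem-loop is shown because it sets this family apart from other messages. It was searched as GGNTCTTTTCAGANCC on the sense strand of every annotated GENCODE M21 transcript. In the sequences, from build GRCm38, capitals mark the element.
Hist1h1c, chr13:23738808-23740367, plus strand: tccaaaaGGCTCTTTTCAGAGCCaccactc
Hist1h2bj, chr13:22043214-22043676, plus strand: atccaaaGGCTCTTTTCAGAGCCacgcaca
Hist2h3c2, chr3:96238108-96239127, minus strand: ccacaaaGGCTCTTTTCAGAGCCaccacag
The element ended 23 bases before the end of the annotated transcript in Hist1h2bj, but 840 bases before it in Hist1h1c and 377 bases before it in Hist2h3c2, where the annotation runs on past it. The 16 bases were found in 24 of the 66 histone genes (36.4%) and in 2 of the other 12768 genes tested (0.0157%). Histone genes with this spelling had a median difference of 1.98, and those without it 1.83.

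Hist1h3c, which encodes histone H3, had 1766.3, 1832.4 and 1158.7 FPKM in the 3 cytoplasm libraries, against 286.7, 278.7 and 247.5 FPKM in the 3 total libraries. Every cytoplasm value lay above every total value, replicate 3 nearest, and the difference was 2.52 (SE 0.20, limma adjusted p = 7.39e-07). The linker histone gene Hist1h1c had 1559.2, 1566.2 and 1421.2 FPKM in cytoplasm, against 367.4, 309.4 and 332.8 FPKM in total RNA, a difference of 2.17. Hist1h4k, an H4 gene, was the most abundant gene of all 6 libraries, with 114715, 119257 and 125955 FPKM in cytoplasm, against 35893.1, 33057.1 and 33268.1 FPKM in total RNA. In that gene cytoplasm replicate 3 was the highest of the 3. Histones together made up 27.8% to 28.5% of all FPKM in cytoplasm and 14.8% to 16.2% in total RNA. The 3 genes not called, named after their values were seen, were Hist2h2be at -0.06, Hist1h2ba at 0.61 and Hist1h2aa at 0.81. Histone genes are near-identical copies, so reads may be split among them and the value of a single copy is uncertain.

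Histone genes are also short, with a median exonic length of 536 bases. Short genes can be weighted differently by FPKM: at 300 to 400 bases 1 fragment counted for 2.27 to 2.45 times what the length alone gives in cytoplasm, and for 2.48 to 2.73 times in total RNA, relative to genes of 3000 to 5000 bases. When the trend with length and GC content was removed from the differences of all genes, 679 of 12805 genes were higher (5.30%) and 1238 lower (9.67%). With that correction 52 of the 66 histones were higher, and their median was 1.30 against 0.03 for all genes. With libraries scaled to one sum 25 histones were higher, with a median of 0.90 against -0.71. Histone variants with a poly(A) tail lay lower: 7 of 11 were higher, with a median of 1.07. Among them H2afx, the variant phosphorylated at DNA breaks, differed by 1.66 and H2afz, a variant found at promoters, by 1.05.

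Ribosomal protein messages were the next highest large group. Of 49 large subunit genes 36 were higher and none was lower, with a median of 1.18. Of 33 small subunit genes 29 were higher and none was lower, with a median of 1.20. Rplp1, a protein of the ribosomal stalk, had 16650.1, 17296.4 and 14991.0 FPKM in cytoplasm, against 5629.1, 5679.3 and 5479.0 FPKM in total RNA. The groups of libraries were far apart, with a difference of 1.54 (SE 0.30, limma adjusted p = 0.00051). The highest values belonged to Rpl28 and Rps2, each with a difference of 1.85. With length and GC content corrected, 5 large and 7 small subunit genes were higher, with medians of 0.70 and 0.63. On the scale of one sum no ribosomal protein gene was called, with medians of 0.18 and 0.20. Many ribosomal protein genes have processed pseudogene copies, so their FPKM may share reads with them.

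Translation factors did not follow the ribosomal proteins as a group, with a median of 0.36. Of 38 tested, 12 were higher (31.6%) and 7 lower (18.4%), against 12.7% and 17.6% of all genes. Eif6, which keeps the ribosomal subunits apart, differed by 1.39 (SE 0.10, limma adjusted p = 4.59e-07). Eif3a, the large scaffold of initiation factor eIF3, had 18, 18.2 and 35.8 FPKM in cytoplasm, against 182.4, 171.2 and 181.2 FPKM in total RNA. Its difference was -2.94 (SE 0.24, limma adjusted p = 7.35e-07), and cytoplasm replicate 3 was the highest of the cytoplasm libraries while staying far below total RNA. Eef1a1, the elongation factor that brings tRNA to the ribosome, differed by 0.80 and Pabpc1, which binds poly(A) tails, by -0.74. Both fell short of 2-fold. Of 20 aminoacyl-tRNA synthetase genes 2 were higher and 1 was lower. Sars, which charges serine tRNA, had 458.4, 484.7 and 437.1 FPKM in cytoplasm, against 141.1, 135.6 and 132.1 FPKM in total RNA, a difference of 1.75. The gene for the glutamate and proline enzyme, Eprs, differed by -1.82. On the scale of one sum the medians were -0.64 for translation factors and -0.23 for the synthetases. With length and GC content corrected, 3 translation factors were higher (7.89%) and 2 lower (5.26%), with a median of 0.26. After that correction 1 synthetase was higher (5.0%) and none was lower, with a median of 0.33. Of all genes 5.30% were then higher and 9.67% lower.

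**Figure D2:**
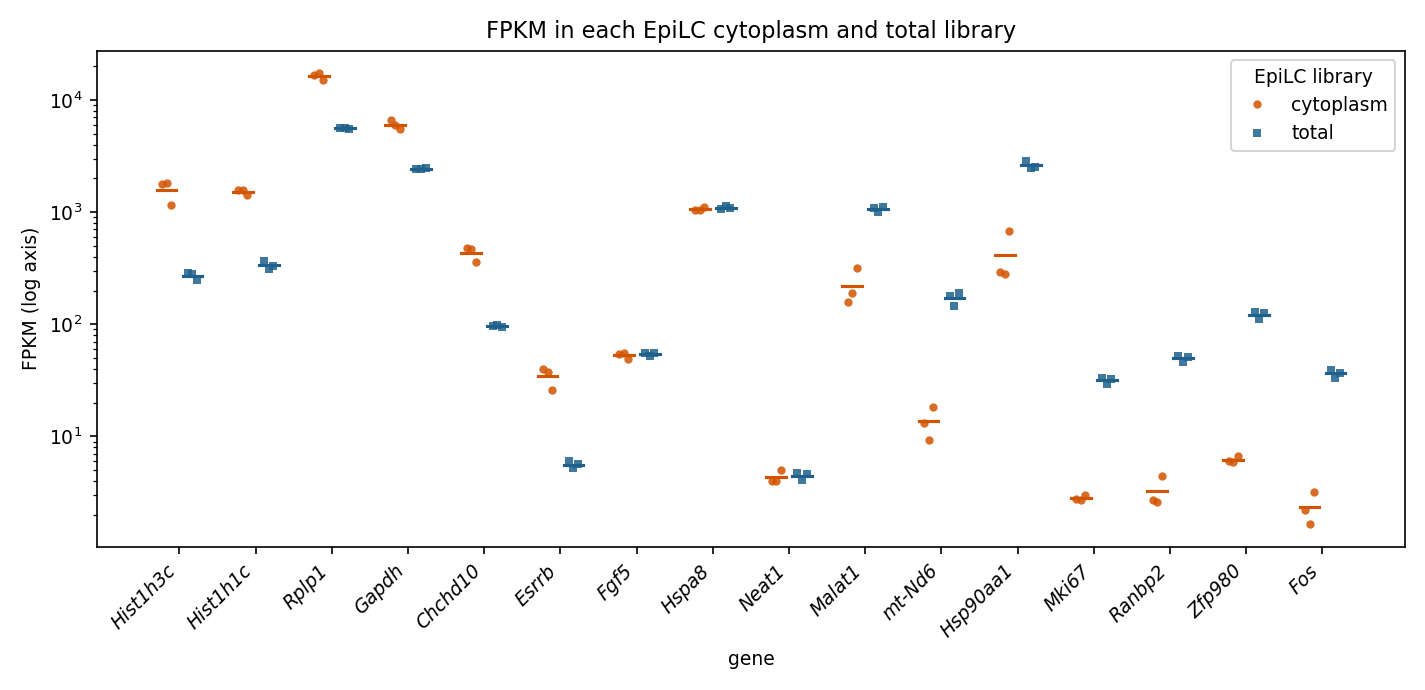
FPKM (log axis) of named genes (x axis) in each of the 3 EpiLC cytoplasm and 3 EpiLC total libraries (points), with the mean of each group (bars). For Hist1h3c the cytoplasm libraries hold 1158.7 to 1832.4 FPKM against 247.5 to 286.7 FPKM in total RNA, and for Zfp980 5.86 to 6.68 FPKM against 110.8 to 128.3 FPKM.

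Nuclear genes for mitochondrial proteins were called higher in cytoplasm or not called. Higher were 23 of 37 complex I genes with a median of 1.09, 18 of 39 genes of complexes II to V with a median of 0.97, and 33 of 77 mitochondrial ribosome genes with a median of 0.97. None of these 3 groups had a gene called lower. Ndufb10, a complex I subunit, had 184.4, 187.4 and 165.0 FPKM in cytoplasm, against 75.1, 66.3 and 69.7 FPKM in total RNA. Its difference of 1.34 (SE 0.11, limma adjusted p = 6.76e-07) was close to the 1.35 of Sdhb, the iron-sulfur subunit of complex II. Mrps34, of the small mitochondrial ribosomal subunit, differed by 1.60. Outside these lists Chchd10, a protein of the space between the mitochondrial membranes, had 478.6, 471.1 and 356.4 FPKM in cytoplasm, against 96.8, 97.9 and 94.3 FPKM in total RNA, a difference of 2.16. With length and GC content corrected, 7, 3 and 18 genes of the 3 groups were higher. That is 18.9%, 7.69% and 23.4%, against 5.30% of all genes. On the scale of one sum the medians of the 3 groups were 0.10, -0.03 and -0.02, all above the -0.71 of all genes.

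The messages of the mitochondrial genome moved the other way. Of 13 tested, 11 were lower in cytoplasm and none was higher, with a median of -1.53. Together they made up 0.505% to 0.661% of all FPKM in cytoplasm and 2.53% to 3.01% in total RNA. The messenger of the complex IV subunit mt-Co1 had 1276.1, 1025.7 and 1304.8 FPKM in cytoplasm, against 2837.2, 2379.3 and 2873.4 FPKM in total RNA. Its difference was -1.17 (SE 0.45, limma adjusted p = 0.031). The largest difference was that of mt-Nd6, the one of these messages encoded on the light strand, with 13.3, 9.23 and 18.3 FPKM in cytoplasm, against 180.1, 145.1 and 190.1 FPKM in total RNA. That is -3.65 (SE 0.40, limma adjusted p = 6.25e-06), and cytoplasm and total did not overlap. These messages have a median GC content of 37.1%, and with length and GC content corrected 2 were lower and the median was 0.06. How far the low values reflect mitochondria left with the nuclei was not tested.

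Other housekeeping groups ranged more widely. Of 16 glycolysis genes 9 were higher and none was lower, with a median of 1.10. Gapdh had 6588.8, 6002.9 and 5495.6 FPKM in cytoplasm, against 2448.1, 2422.5 and 2453.8 FPKM in total RNA, a difference of 1.30 (SE 0.11, limma adjusted p = 7.58e-07). Aldoa, a glycolytic aldolase, differed by 1.25, and Actb, cytoplasmic actin, by 1.26. The cytoskeleton and housekeeping genes had 14 of 26 higher and none lower, with a median of 1.05. Proteasome genes had a median of 0.72, with 8 of 31 higher. The single proteasome gene called lower was Psmc6, an ATPase of the regulatory particle, with 40.2, 40.1 and 62.0 FPKM in cytoplasm, against 134.4, 125.5 and 132.9 FPKM in total RNA. Psmb6, a catalytic core subunit, differed by 1.24 and Psmc6 by -1.49, and the transcript of Psmc6 has a GC content of 37.0% against 55.8% for Psmb6. After the correction for length and GC content the difference of Psmc6 was 0.16. In cholesterol synthesis 6 of 21 genes were higher, 1 was lower and 14 were not called. Fdft1, squalene synthase, differed by 1.24 and Idi1, an isomerase, by -1.23, and after the correction for length and GC content neither was called, at 0.81 and -0.41. With length and GC content corrected, 2 glycolysis, 1 cytoskeleton and housekeeping, 3 proteasome and 1 cholesterol synthesis genes were higher. That is 12.5%, 3.85%, 9.68% and 4.76% of these groups, against 5.30% of all genes. On the scale of one sum the medians of glycolysis, cytoskeleton, proteasome and cholesterol synthesis were 0.10, 0.06, -0.27 and -0.24.

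Noncoding RNAs known from the nucleus were lower in cytoplasm for 10 of 22 tested and higher for 1, with a median of -0.94. Malat1, an RNA of nuclear speckles, had 157.5, 191.3 and 314.6 FPKM in cytoplasm, against 1086.3, 994.0 and 1112.9 FPKM in total RNA. All cytoplasm values lay well below total RNA, with replicate 3 highest, and the difference was -2.33 (SE 0.22, limma adjusted p = 2.16e-06). Kcnq1ot1, which silences an imprinted cluster, was at 0.157, 0.169 and 0.21 FPKM in cytoplasm, against 3.23, 3.41 and 3.47 FPKM in total RNA. The imprinted RNA Meg3 differed by -1.63 and Tug1, a long noncoding RNA, by -1.5. Neat1, the scaffold of paraspeckles, did not follow: it had 3.98, 4 and 5.03 FPKM in cytoplasm, against 4.72, 4.07 and 4.64 FPKM in total RNA, so the libraries overlapped (difference -0.05, limma adjusted p = 0.761). The median was -1.72 with one sum. With length and GC content corrected, 5 of these RNAs were higher and 4 lower, and Malat1 remained lower at -1.3. On that scale Kcnq1ot1 was at 0.76, Tug1 at 0.51 and Neat1 at 1.02.

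Noncoding genes that host small nucleolar RNAs in their introns had a median of 0.42, with 2 of 13 higher and none lower. Snhg20 had 328.8, 426.2 and 258.1 FPKM in cytoplasm, against 80.2, 71.3 and 47.0 FPKM in total RNA, a difference of 2.35 (SE 0.26, limma adjusted p = 5.43e-06). Gas5, at -0.96, and Snhg1, at -0.43, fell short of 2-fold. By annotated gene type, lincRNA genes had a median of -0.68 with 39.4% of 322 lower, antisense genes -0.33 with 25.4% of 374 lower, and genes inside introns on the sense strand -1.34 with 71.4% of 56 lower. Protein-coding genes had a median of 0.21 with 16.4% of 11800 lower. Whether the authors' counting used strand is not given in the sources used here, so values of antisense and intronic genes are uncertain.

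Several groups of genes for nuclear proteins were lower in cytoplasm. Of 67 chromatin regulators 31 were lower and none was higher, with a median of -0.80. Of 45 mitosis and kinetochore genes 22 were lower and none was higher, also with a median of -0.80. Of 50 genes for SR proteins, CLK kinases and other messages known to keep detained introns, 22 were lower and none was higher, with a median of -0.86. After correction for length and GC content 14, 15 and 14 of these genes were lower, that is 20.9%, 33.3% and 28.0% against 9.67% of all genes. With one sum their medians were -1.79, -1.77 and -1.84.

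Ranbp2, the large SUMO ligase of the cytoplasmic face of the nuclear pore, had 2.73, 2.62 and 4.46 FPKM in cytoplasm, against 52.2, 46.5 and 50.6 FPKM in total RNA. Its difference was -3.77 (SE 0.21, limma adjusted p = 1.4e-07). Most other pore genes did not share it, since 4 of 27 were lower (14.8%) and none was higher, with a median of -0.14. Among all genes 17.6% were lower. Tpr, of the pore's nuclear basket, was another of the 4, at -2.80. Kif20b, a mitotic kinesin, had 1.58, 1.31 and 2.21 FPKM in cytoplasm, against 31.3, 26.2 and 29.4 FPKM in total RNA, a difference of -3.76. Knl1, the kinetochore scaffold, was at -3.62, the kinetochore motor gene Cenpe at -3.43, the proliferation marker Mki67 at -3.28 and the condensin gene Smc4 at -3.11.

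Among chromatin regulators Setd2, which methylates histone H3 in transcribed genes, had 3.78, 3.57 and 3.86 FPKM in cytoplasm, against 35.6, 33.4 and 32.4 FPKM in total RNA. Its difference was -3.01 (SE 0.18, limma adjusted p = 1.81e-07), and the remodeller Atrx also stood at -3.01. After the correction for length and GC content Setd2 was still called lower at -1.98, whereas Atrx was not called at -0.70. Suz12, a core subunit of Polycomb repressive complex PRC2, was at -2.55, and Tet1, which oxidises methylated DNA, at -2.5. The splicing-associated genes Rbm25, Prpf4b and Luc7l3 differed by -3.15, -3.07 and -2.68. For Prpf4b the values were 3.52, 3.93 and 9.02 FPKM in cytoplasm, against 45.3, 45.7 and 46.7 FPKM in total RNA, so replicate 3 held the most of the cytoplasm libraries. The nucleolar group was mixed, with 11 of 45 lower and 6 higher and a median of 0.32. Ncl, nucleolin, was at -1.97 and Npm1, nucleophosmin, at -1.63, whereas Rrp9, a protein of small nucleolar ribonucleoproteins, was at 1.63.

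Zinc finger genes were the largest family examined, and many were lower in cytoplasm. Of 344 genes with Zfp names 169 were lower and 13 higher, with a median of -0.96. The proteins hold C2H2 zinc fingers, DNA-binding loops strung together by a short conserved linker. Because the finger repeat is what these genes share, one repeat is shown for each of 4 genes of a cluster on chromosome 4. Capitals mark the 18 bases that encode the linker, and positions are the genes' in build GRCm38.
Zfp980, chr4:145670685-145704441, plus strand: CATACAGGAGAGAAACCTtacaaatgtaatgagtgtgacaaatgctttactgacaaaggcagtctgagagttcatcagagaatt
Zfp987, chr4:146097298-146126621, plus strand: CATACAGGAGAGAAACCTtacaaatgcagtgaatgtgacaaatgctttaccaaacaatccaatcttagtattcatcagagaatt
Zfp600, chr4:146156824-146198755, plus strand: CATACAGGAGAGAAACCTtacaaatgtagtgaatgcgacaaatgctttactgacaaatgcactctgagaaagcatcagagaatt
Rex2, chr4:147021850-147060794, plus strand: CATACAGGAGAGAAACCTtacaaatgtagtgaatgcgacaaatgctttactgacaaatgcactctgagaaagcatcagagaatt
The 84 bases of Zfp600 and of Rex2 were identical, and each matched those of Zfp980 at 90.5% of positions, whereas those of Zfp987 matched at 84.5%. Reads from such copies may be shared, so the value of a single gene of the cluster is uncertain.

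Zfp980 had 6.07, 5.86 and 6.68 FPKM in cytoplasm, against 128.3, 110.8 and 126.3 FPKM in total RNA, a difference of -4.19 (SE 0.21, limma adjusted p = 1.4e-07). Here the 3 cytoplasm libraries agreed closely, replicate 3 included. Zfp987 was at -3.85, Rex2 at -3.81 and Zfp600 at -3.57. From Zfp980 to Rex2 on chromosome 4, a stretch set after the values were seen, all 7 tested genes with a linker were lower, with differences of -4.19 to -1.49. Zfp genes of other chromosomes varied: on chromosome 17 the median was -1.89 with 34 of 45 lower, on chromosome 13 it was -1.86 with 24 of 29 lower, and on chromosome 7 it was -0.25 with 26 of 84 lower and 9 higher. Of 10 on chromosome 15 none was called, with a median of 0.57.

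The linker itself was found in 391 of 11771 coding genes searched (3.32%), of which 204 were lower and 6 higher, with a median of -1.13 against 0.23 without it. Among genes with Zfp names, those with the linker had a median of -1.27 and those without it 0.01. By the protein pattern, genes with 5 or more fingers had a median of -1.12 with 51.2% of 406 lower, genes with 1 to 4 fingers -0.08 with 26.2% of 141 lower, and genes with none 0.24 with 14.9% of 11131 lower. With length and GC content corrected, the medians were -0.38, -0.12 and 0.08. On that scale 79 of the Zfp genes were lower (23%) and 4 higher. With one sum the median of the Zfp genes was -1.68.

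The difference went with base composition across coding genes, most steeply where GC content was low. Spearman's rho between GC content of the transcript and the difference was 0.603 across 11800 genes, and 0.573 across 11678 genes for the last base of the codons. The same libraries supply every point, and GC content also affects amplification and sequencing, so this is a description. Genes were ranked and cut into 10 classes of equal size. In the class with the least GC the median difference was -1.44 with 66.9% lower, and in the class with the most it was 0.69 with 29.1% higher. The 4 classes with the most GC were nearly level, with medians of 0.59, 0.65, 0.62 and 0.69. Length went the other way, with rho = -0.499 for transcript length. The shortest class had a median of 0.92 with 44.3% higher and the longest class -0.76 with 41.3% lower. Both held together when genes were cut into 3 classes of each: genes of high GC and short length had a median of 0.95 with 45.4% higher, and genes of low GC and long length had -1.17 with 57.0% lower.

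Genes higher in cytoplasm had a median transcript of 1503 bases with 55.4% GC and a median gene span of 8108 bases. Genes lower in cytoplasm had a median transcript of 4394 bases with 42.9% GC and a span of 48293 bases. To show the spelling, 60 bases from the middle of the coding sequence are given for 3 genes lower in cytoplasm and 3 higher, chosen after their values were seen. Genes sit on the plus strand of build GRCm38, and capitals mark G or C as the last base of a codon.
Arhgap5, difference -3.85: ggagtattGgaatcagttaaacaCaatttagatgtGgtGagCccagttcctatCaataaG
Ranbp2, difference -3.77: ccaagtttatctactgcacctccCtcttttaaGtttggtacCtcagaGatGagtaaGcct
Kif20b, difference -3.76: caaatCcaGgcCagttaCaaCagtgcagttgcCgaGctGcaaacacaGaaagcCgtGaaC
Chchd10, difference 2.16: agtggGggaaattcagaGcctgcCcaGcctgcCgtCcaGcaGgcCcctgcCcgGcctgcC
Upp1, difference 2.26: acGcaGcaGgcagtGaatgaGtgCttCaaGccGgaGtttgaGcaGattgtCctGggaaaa
Esrrb, difference 2.5: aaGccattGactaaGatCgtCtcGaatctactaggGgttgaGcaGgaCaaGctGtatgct
In these stretches of 20 codons G or C ended 7 in Arhgap5, 6 in Ranbp2 and 12 in Kif20b, and 12 in Chchd10, 14 in Upp1 and 12 in Esrrb, so the Kif20b stretch does not differ from 2 of the higher genes. Over the whole coding sequence, G or C ended 28.5% of codons in Arhgap5, 32.1% in Ranbp2 and 37.5% in Kif20b, and of 69.6% in Chchd10, 65.9% in Upp1 and 77.5% in Esrrb. Genes against the trend exist, since Fosb at -3.98 and Fos at -3.73 have transcripts of 56.0% and 51.9% GC. Arhgap5, a GTPase-activating protein gene on chromosome 12, had 1.43, 1.59 and 2.24 FPKM in cytoplasm, against 33.1, 29.4 and 32.0 FPKM in total RNA. Upp1, which splits uridine, had 260.1, 272.6 and 124.3 FPKM in cytoplasm, against 39.4, 45.1 and 43.4 FPKM in total RNA, with replicate 3 nearest to total.

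**Figure D3:**
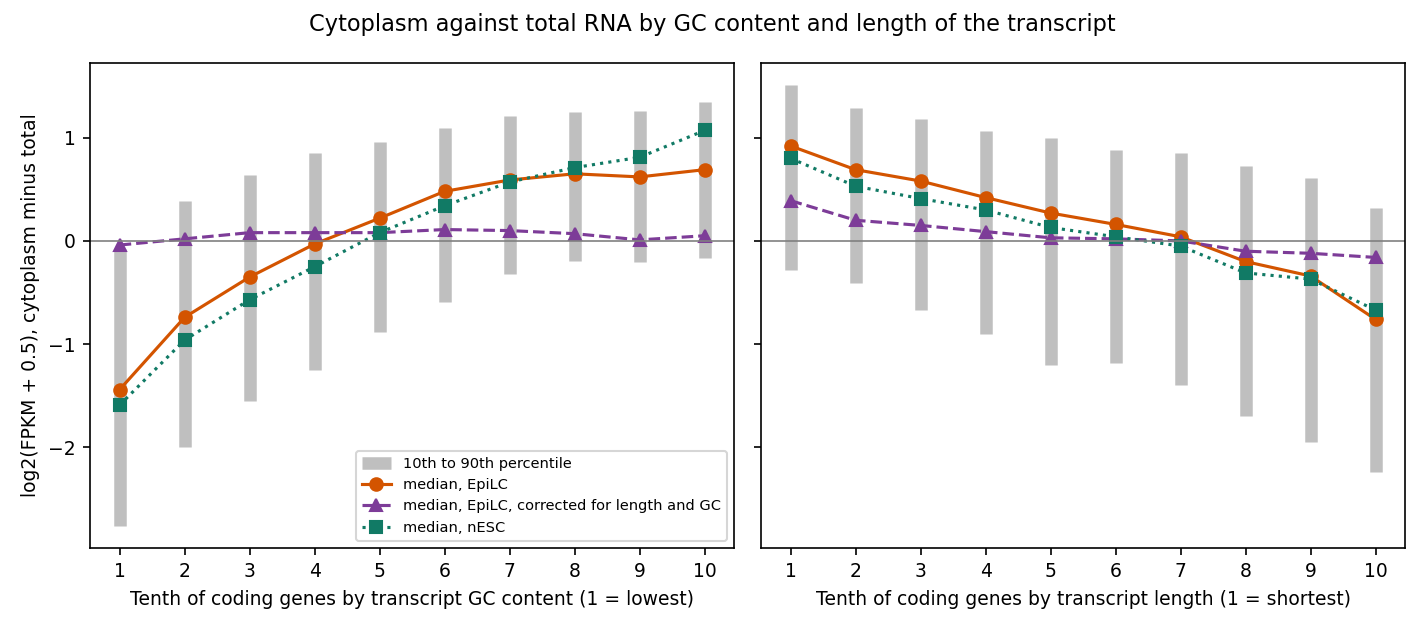
Median difference between cytoplasm and total RNA on the log2(FPKM + 0.5) scale (y axis) for coding genes in 10 classes of transcript GC content and of transcript length (x axes, low to high), in EpiLC (circles, with the 10th to 90th percentile as grey bars), in EpiLC after correction for length and GC content (triangles) and in nESC (squares). The EpiLC median runs between -1.44 in the class with the least GC and 0.69 in the class with the most, and between 0.92 in the shortest class and -0.76 in the longest.

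Messages translated at the endoplasmic reticulum did not stand together. Genes whose protein has a signal peptide-like start and no membrane span-like stretch, judged by windows of hydropathy, had a median of 0.18 across 780 genes, against 0.24 across 8919 genes with neither. Of those with neither 14.9% were higher, compared with 11% of the signal peptide-like genes, 5.32% of 714 genes with both features, whose median was 0.09, and 9.41% of 1265 genes with a membrane span-like stretch only, whose median was 0.14. Chaperones and disulfide isomerases of the endoplasmic reticulum had a median of -0.04 with 9 of 32 lower and 2 higher. Hsp90b1, the HSP90 of that compartment, had 38, 35.2 and 85 FPKM in cytoplasm, against 352.8, 350.2 and 349.5 FPKM in total RNA, a difference of -2.84 (SE 0.32, limma adjusted p = 7.11e-06). Hspa5, the BiP chaperone, was at -1.37 and Canx, calnexin, at -1.5, but Calr, calreticulin, had 220.0, 218.9 and 238.9 FPKM in cytoplasm, against 246.3, 258.3 and 263.0 FPKM in total RNA (difference -0.18, limma adjusted p = 0.461). In the translocon and glycosylation group 4 of 24 were higher, such as the channel subunit Sec61b at 1.06, and 2 lower, such as Sec63 at -2.02. On the scale of one sum the medians of the chaperones and of the translocon group were -1.03 and -0.55.

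Surface receptors and adhesion genes had 14 of 50 lower and none higher, with a median of -0.18. With length and GC content corrected, 3 were lower (6.0%), against 9.67% of all genes, and 1 was higher. The transferrin receptor gene Tfrc had 23.6, 20.7 and 39.1 FPKM in cytoplasm, against 109.8, 110.1 and 115.0 FPKM in total RNA, a difference of -2.04 (SE 0.23, limma adjusted p = 8.07e-06). Tgfbr1, a type I receptor of TGF-beta, was at -1.98. Secreted and matrix genes had 4 of 38 higher (10.5%) and 1 lower (2.63%), against 12.7% and 17.6% of all genes, with a median of -0.06. Apoe, an apolipoprotein, was higher at 1.53 and Lefty2, a secreted Nodal antagonist, at 1.35, whereas Fn1, fibronectin, had 24.4, 21.6 and 22.7 FPKM in cytoplasm, against 22.7, 26.5 and 24.4 FPKM in total RNA, with overlapping libraries. With length and GC content corrected, none of the secreted and matrix genes was higher and 3 were lower (7.89%), with a median of -0.36. On the scale of one sum none was higher and 19 were lower, with a median of -0.96. Outside these lists Trh, a secreted hormone precursor, had 169.0, 176.5 and 107.1 FPKM in cytoplasm, against 21.1, 24.6 and 24.3 FPKM in total RNA, a difference of 2.63. Cytosolic chaperones were mixed, with 3 of 28 higher (10.7%) and 5 lower (17.9%), near the 12.7% and 17.6% of all genes. Hsp90aa1, the inducible cytosolic HSP90, had 290.3, 281.0 and 675.5 FPKM in cytoplasm, against 2840.7, 2486.4 and 2519.8 FPKM in total RNA, a difference of -2.78, while Hspa8 showed overlapping libraries at -0.05.

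Genes of core and naive pluripotency had 10 of 29 higher and 4 lower, with a median of 0.70. Pou5f1, which encodes OCT4, had 1884.4, 2059.2 and 1812.4 FPKM in cytoplasm, against 858.6, 885.1 and 856.2 FPKM in total RNA. The difference of 1.14 (SE 0.12, limma adjusted p = 5.56e-06) separated every library, and Sox2 was close to it at 1.05. After the correction for length and GC content neither was called, at 0.34 for Pou5f1 and 0.51 for Sox2. Esrrb, a nuclear receptor of the naive state, had 39.6, 37.7 and 26.2 FPKM in cytoplasm, against 6, 5.18 and 5.65 FPKM in total RNA. Its difference of 2.5 was the highest of this group, followed by Tdh, a threonine dehydrogenase, at 1.98 and Nr0b1, another nuclear receptor gene, at 1.96. Nanog differed by 0.42, short of 2-fold. The 4 genes lower in cytoplasm were Rif1, a replication timing factor, at -3.19, the RNA-binding gene L1td1 at -2.17, and the zinc finger genes Zfp281 at -2.15 and Klf4 at -1.07. Klf4 averaged 0.433 FPKM in cytoplasm and 1.45 FPKM in total RNA. These levels are near the 0.5 added before the log, so the difference of Klf4 is uncertain. After correction for length and GC content 5 were higher and 4 lower, and on the scale of one sum the median was -0.27.

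Formative epiblast genes had 5 of 29 higher (17.2%) and 2 lower (6.9%), against 12.7% and 17.6% of all genes, with a median of 0.41. Fgf5, the growth factor that marks EpiLC, had 54.4, 55.6 and 49.4 FPKM in cytoplasm, against 55.0, 52.5 and 55.1 FPKM in total RNA, and the libraries overlapped (difference -0.03, limma adjusted p = 0.781). Pou3f1, a POU factor of the same state, also overlapped at 0.22. The homeobox gene Otx2 was at 0.28. The DNA methyltransferase genes differed among themselves: Dnmt3l, the cofactor without catalytic activity, had 215.7, 219.3 and 148.8 FPKM in cytoplasm, against 55.5, 55.3 and 55.0 FPKM in total RNA, a difference of 1.79 (SE 0.17, limma adjusted p = 2.28e-06). Dnmt3a was at 0.99, just short of 2-fold, and Dnmt3b at 0.43. The 2 Lin28 genes, whose proteins block let-7 maturation, were far apart. Lin28a, counted above with the core genes, was at 0.92, short of 2-fold, and Lin28b was called lower with 1.82, 1.42 and 3.34 FPKM in cytoplasm, against 18, 18.2 and 18.4 FPKM in total RNA. The median of the formative group was -0.57 with one sum. With length and GC content corrected, 2 of the group were higher (6.9%) and 3 lower (10.3%), with a median of -0.10. Of all genes 5.30% were then higher and 9.67% lower.

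Immediate early genes, which are transcribed within minutes of a stimulus and whose messages are short-lived, had a median of 0.00, with 2 of 29 higher and 3 lower. The 3 lower ones were Fosb at -3.98, Fos at -3.73 and Egr1 at -2.87. Fos had 2.2, 1.65 and 3.18 FPKM in cytoplasm, against 38.9, 33.5 and 36.8 FPKM in total RNA, and its SE was 0.22 (limma adjusted p = 1.66e-07). Jund, by contrast, was higher, with 83.9, 87.2 and 79.2 FPKM in cytoplasm, against 33.9, 33.4 and 31.5 FPKM in total RNA. With length and GC content corrected, 8 of the 29 were lower (27.6%), against 9.67% of all genes, and none was higher. The median was then -0.29. With one sum 12 were lower and none was higher, with a median of -0.89. In the mean of total RNA Fos stood at 36.4 FPKM, above cytoplasm at 2.34, chromatin at 23.4 and nucleoplasm at 2.69 FPKM. Egr1 likewise stood at 11.2 FPKM in total RNA, above 1.12 in cytoplasm, 4.42 in chromatin and 0.659 in nucleoplasm. Total RNA was above all 3 fractions in every library for 234 of 12834 genes (1.82%) and below all 3 for 531 (4.14%). Of the 234 genes 46 were called lower in cytoplasm (19.7%). The choice itself put their cytoplasm below total RNA, so this share cannot be set against the 17.6% of all genes. Fractions were taken from cells that had been trypsinised. Whether total RNA was drawn from cells handled the same way is not given in the sources used here, and its part in these values was not tested.

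The difference was compared between the states. In nESC 4453 of 12592 genes differed (35.4%), with 2012 higher in cytoplasm (16.0%) and 2441 lower (19.4%), a comparison made from other libraries in a table normalised separately. Of 11704 genes tested in both states, 1597 were higher in EpiLC cytoplasm, of which 849 (53.2%) were also higher in nESC and 8 lower. The 849 were 46.3% of the genes higher in nESC. Of 2049 genes lower in EpiLC cytoplasm, 1645 (80.3%) were also lower in nESC and 4 higher, and they were 70.4% of the genes lower in nESC. Across the 11704 genes rho between the states was 0.822. Histones had a median of 1.9 in EpiLC and 2.23 in nESC, Zfp genes -0.96 in EpiLC and -1.15 in nESC, and mitochondrial messages -1.53 in EpiLC and -0.83 in nESC.

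Testing the difference between the states directly, with each library centred on its median gene, called 940 of 11704 genes (8.03%), of which 270 were higher in EpiLC (2.31%) and 670 lower (5.72%). Higher and lower here refer to the cytoplasm minus total difference, not to the level of a gene. With no filter on low values the balance turned, with 1193 higher and 474 lower. Of the 13 mitochondrial messages 4 were lower in EpiLC and none was higher, among them mt-Nd6 by -2.15 (SE 0.25, limma adjusted p = 4.88e-05). Of 25 immediate early genes tested in both states 6 were lower in EpiLC and none was higher. Fos had a difference of -3.73 in EpiLC and 1.45 in nESC, where its level was 2.49, 2.86 and 2.81 FPKM in cytoplasm, against 0.318, 0.472 and 1.56 FPKM in total RNA. The test of its difference gave -5.27 (SE 0.39, limma adjusted p = 2.01e-06). Jun and Dusp1, the gene of a MAP kinase phosphatase, also had a lower difference in EpiLC, by -2.81 and -2.24. Jun stood at -0.17 in EpiLC and 2.55 in nESC, where total RNA held 0.437, 0.348 and 0.591 FPKM. Dusp1 stood at -0.43 in EpiLC and 1.72 in nESC. nESC were grown with a MEK inhibitor, and the part of growth conditions in these values was not tested.

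Among pluripotency genes Nr0b1 was at 1.96 in EpiLC and 0.29 in nESC, and Tdh at 1.98 in EpiLC and 0.62 in nESC, with tested differences of 1.57 and 1.28. Zfp42, also called Rex1, was at 0.70 in EpiLC and -1.15 in nESC, where it had 167.7, 187.0 and 172.3 FPKM in cytoplasm, against 406.6, 397.1 and 369.0 FPKM in total RNA. Its tested difference was 1.76 (SE 0.09, limma adjusted p = 1.4e-07). Otx2, which marks the formative state, went the other way, at 0.28 in EpiLC and 1.35 in nESC, with a tested difference of -1.16. Levels on chromatin and in nucleoplasm, from libraries outside the comparison, were set beside the difference over many genes. Where chromatin RNA was at least 4-fold lower in EpiLC than in nESC, 16.1% of 192 genes had a higher EpiLC difference, with a median of 0.29. Where it was at least 4-fold higher, 22.2% of 189 genes had a lower EpiLC difference, with a median of -0.50, against 0.05 for 9901 genes within 2-fold. Ordered by nucleoplasm RNA instead, the medians of the same 2 outer classes were 0.03 and -0.34. In the lower of them 8.44% of 308 genes had a higher EpiLC difference and 13.6% a lower one, the reverse of the order by chromatin. These levels were set across tables that were normalised separately, and no test was made over the classes.

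**Figure D4:**
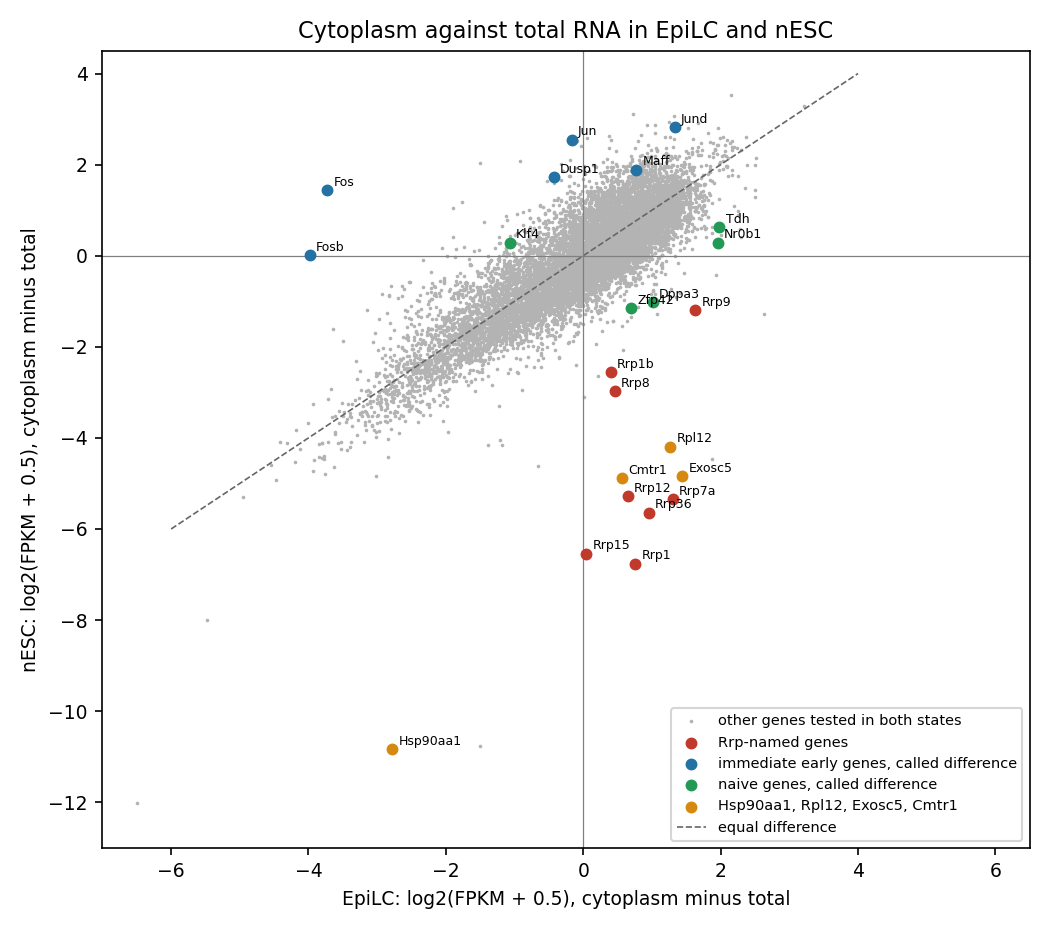
Difference between cytoplasm and total RNA on the log2(FPKM + 0.5) scale in EpiLC (x axis) and in nESC (y axis) for 11704 genes tested in both states (grey), with the named gene groups in colour and a dashed line of equal difference. Most genes lie along the line, whereas Fos lies at -3.73 in EpiLC and 1.45 in nESC, and Hsp90aa1 at -2.78 in EpiLC and -10.84 in nESC.

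A set of genes was near absent from nESC cytoplasm while abundant in EpiLC cytoplasm. Hsp90aa1 had a mean of 415.6 FPKM in EpiLC cytoplasm and 2615.7 FPKM in EpiLC total RNA, but 1.31, 2.63 and 1.74 FPKM in nESC cytoplasm, against 4168.2, 4203.4 and 4471.7 FPKM in nESC total RNA. Rrp1, a ribosome biogenesis gene, had a mean of 214.9 FPKM in EpiLC cytoplasm and 126.3 FPKM in EpiLC total RNA, but 0.481, 0.546 and 0.581 FPKM in nESC cytoplasm, against 115.5, 112.0 and 108.8 FPKM in nESC total RNA. All 8 tested genes with Rrp names, chosen after their values were seen, had a higher cytoplasm minus total difference in EpiLC by this test. Their differences were 0.04 to 1.63 in EpiLC and -6.76 to -1.19 in nESC. In nESC 5 of the 8 were at least 8-fold lower in cytoplasm. The rest were not near absent there, since Rrp8 averaged 3.45, Rrp1b 6.7 and Rrp9 67.1 FPKM in nESC cytoplasm. The cause was not tested, and values as near 0 as those of Hsp90aa1 and Rrp1 in nESC cytoplasm can also come from a failed estimate.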

How the data were processed

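RNA of 24 libraries was measured, of which the 6 EpiLC cytoplasm and total libraries carry this comparison. The authors deposited FPKM values per gene, 1 table for each cell state. The submitters' processing notes name TopHat2, Cuffnorm and the build mm10 (GRCm38). Not given in the sources used here are their versions, the annotation, the scaling of libraries and strand use. From the deposited FPKM, log2(FPKM + 0.5) was computed for 12834 genes that averaged 1 FPKM or more over the 12 EpiLC libraries. All 4 EpiLC groups were fitted together in limma 3.58.1 (trend, R 4.3.3), two-sided, with Benjamini-Hochberg adjustment over all genes tested. Calls needed adjusted p under 0.05 and 2-fold. The state difference was tested over 12 cytoplasm and total libraries, each centred on its median. Gene positions, sequences, length and GC content came from GENCODE M21 (GRCm38), matched by Ensembl ID for 29586 of 29759 genes, and the correction used splines with 5 degrees of freedom. The fit was tested on simulated data.

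Named genes were the 25 with the largest differences in each direction, up to 6 of each list, a fixed set, and the 10 largest state differences in each direction, with at least 5 FPKM in the higher group. The text gives a part of these, and a few genes beside them. The comparison and the lists were chosen with earlier results of these data known. Alternatives were 2 other pseudocounts, other filters on low values, scaling, centring, length and GC correction, a replicate block, other libraries in the fit and leaving out each library. Small structured RNAs (1 of 28 in the table, none tested) and mitochondrial ribosomal RNAs (0 of 2) were not analysed. Python 3.11.15 with pandas 2.3.3, scipy 1.17.1 and matplotlib 3.10.9 made the summaries and figures.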

Additional observations from a re-analysis of the deposited data

Results flagged for a closer look

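These genes were listed because the difference between cytoplasm and total RNA itself differed between EpiLC and nESC in the direct limma test; values are EpiLC minus nESC on the log2 scale, and no explanation was tested. Among immediate early and signalling-response genes the values were -5.27 for Fos, -4.08 for Fosb, -2.81 for Jun, -2.24 for Dusp1, -1.6 for Jund, -1.21 for Maff and -1.02 for Dusp4. In nESC Fosb lay at 0.125 to 0.36 FPKM in cytoplasm and 0.108 to 0.366 FPKM in total RNA. Total RNA of nESC averaged 0.782 FPKM for Fos, 0.459 FPKM for Jun and 0.572 FPKM for Dusp4. Such levels are near the 0.5 added before the log, so these values are uncertain. Mitochondrial messages gave -2.15 for mt-Nd6, -1.57 for mt-Atp6, -1.25 for mt-Nd1 and -1.16 for mt-Cytb. Muscle myosin light chain genes gave -3.64 for Myl2 and -3.08 for Myl4, with SEs of 0.76 and 0.65. Epithelial and surface genes gave -2.53 for Tspan9, -2.48 for Cldn7, -2.43 for Col9a3, -1.63 for Cldn6, -1.38 for Krt18 and -1.34 for Grhl2. Gpsm1 was at -2.71 and Inka1 at -2.63.

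Pluripotency and formative genes gave -1.70 for Lin28b, -1.45 for Klf4 and -1.16 for Otx2, and 1.09 for Dnmt3l, 1.28 for Tdh, 1.57 for Nr0b1, 1.76 for Zfp42, 1.93 for Dppa3 and 2.16 for Lefty2. Lin28b averaged 0.166 FPKM in nESC cytoplasm and 1.09 FPKM in nESC total RNA. Klf4 averaged 0.433 FPKM in EpiLC cytoplasm and 1.45 FPKM in EpiLC total RNA. Such levels are near the constant added before the log, so the values of Lin28b and Klf4 are uncertain. Noncoding RNAs gave -1.20 for Kcnq1ot1 and -1.04 for Xist, and 1.33 for Neat1 and 1.5 for Gas5. In nESC Kcnq1ot1 averaged 0.0581 FPKM in cytoplasm and 0.976 FPKM in total RNA. Xist averaged 0.0551 FPKM in nESC cytoplasm and 0.563 FPKM in nESC total RNA. The values of Kcnq1ot1 and Xist are therefore uncertain for the same reason. The chromatin genes Kmt2a and Chd7 were at -2.03 and -1.23, with nESC levels of 0.696 FPKM and 1.41 FPKM in total RNA. Other single genes were Hspa8 at 1.05, Luc7l3 at 1.12, Upp1 at 1.27, Tfrc at 1.5 and Trh at 3.83.

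A last set had lower levels in nESC cytoplasm than in nESC total RNA, with Hsp90aa1 at 7.97, Rrp1 at 7.44, Rrp7a at 6.55, Rrp36 at 6.5, Rrp15 at 6.49, Exosc5 at 6.18, Rrp12 at 5.83, Rpl12 at 5.37, Cmtr1 at 5.34, Rrp8 at 3.34, Rrp1b at 2.85 and Rrp9 at 2.73. Mean levels in nESC cytoplasm differed among them, such as 0.536 FPKM for Rrp1 and 67.1 FPKM for Rrp9. Rpl12, a ribosomal protein gene, averaged 3497.1 FPKM in EpiLC cytoplasm and 1442.9 FPKM in EpiLC total RNA, and had 191.4, 180.1 and 171.6 FPKM in nESC cytoplasm, against 3448.8, 3255.6 and 3207.6 FPKM in nESC total RNA.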

How the results depend on the processing

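Against 1630 higher and 2260 lower as deposited, scaling changed the balance most: libraries scaled to one sum gave 4921 called, 46 higher and 4875 lower, and centring gave 2174 higher and 2019 lower. Correction for length and GC content left 1917 called, 679 higher and 1238 lower, and turned the direction of Psmc6 (0.16), mt-Atp8 (0.44), Neat1 (1.02), Kcnq1ot1 (0.76) and Tug1 (0.51). Leaving out 1 library at a time, or cytoplasm and chromatin replicate 3 together, gave 3584 to 4418 called, 1423 to 1954 higher and 2150 to 2464 lower. Against 940 state differences called, no filter on low values gave 1667, with 1193 higher and 474 lower, and a mean of at least 5 FPKM gave 467 called, 140 higher and 327 lower, over fewer genes. Leaving out 1 library gave 885 to 1013 called, 251 to 296 higher and 634 to 730 lower. Over all settings, named genes in the EpiLC comparison kept their call 1952 times, gained a call 15 times, lost it 76 times and turned 5 times. A gene called in neither setting counted as kept, whatever its direction. Replicate numbers did not pair the libraries, since deviations of cytoplasm and total libraries of the same number correlated at -0.02, 0.07 and 0.04, and not every library correlated best with its own number. A replicate block gave 3891 called and 943 state differences. Depth in cytoplasm libraries limits genes under 1 FPKM.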
